A study of Mus musculus with 6 samples.

Results

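Fatty acid oxidation burns fatty acids for energy, and its enzymes were followed here in red cell precursors that lack Rb, a tumour suppressor that holds cells out of the cell cycle. The 35 genes were taken from a list of the enzymes that activate fatty acids, carry them into mitochondria on carnitine and shorten them in mitochondria or peroxisomes. Of these, 33 had a probe set that names 1 gene, and 32 passed the filter on dim probe sets, out of 13232 genes tested and 18192 on the array. Ehhadh, a multifunctional enzyme of peroxisomes, was below the filter, with intensities of 7.34, 10.4 and 8.31 in Rb-null cells and 15.6, 12.9 and 5.95 in control cells. Cpt1b, the muscle form of the carnitine gatekeeper, shared its probe set with neighbouring genes, and Acsl1 had no probe set named in the annotation used here, so neither has a value.

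The cells were sorted from bone marrow as positive for Ter-119, which marks erythroid cells, and for CD71, through which they take up iron. Rb-null mice were EpoR-GFPcre/+; Rb fl/fl, and control mice were EpoR-GFPcre/+; Rb fl/+, so both groups carried Cre at the erythropoietin receptor locus and at least 1 floxed Rb allele. There were 3 arrays in each group, and the labels give no age. Since nothing in the labels says that arrays came from separate animals, a p-value here reflects only how these arrays vary, and that variation may be technical.

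A fatty acid is first joined to coenzyme A by an acyl-CoA synthetase, moved across the inner mitochondrial membrane as a carnitine ester, and then cut in repeated rounds of dehydrogenation, hydration, dehydrogenation and thiolysis. Electrons from the first step of each round pass through the electron transfer flavoprotein to ubiquinone. Peroxisomes run a related cycle on very long and branched chains. Red cell precursors clear their mitochondria as they mature into red cells.

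The deposited intensities had array medians of 24.5 to 29.5 in Rb-null and 23.3 to 31.2 in control cells. Arrays that share a replicate number resembled each other, and the values of each Rb-null array are also given against the control array of the same number, called a pair below. In pair 3 the ribosomal RNA control probe sets averaged 542 on the Rb-null and 1230 on the control array, against 32.6 to 66.2 on the other 4 arrays. Rb1 read 4045, 3670 and 2897 in Rb-null and 2760, 2152 and 1379 in control cells. No source used here places this probe set inside or outside the floxed exon, so Rb1 does not check the labels. Of 15 erythroid markers 10 had a probe set that names 1 gene, and 9 passed the filter. Alas2, the first enzyme of heme synthesis in red cells, read 8760 to 10602 in Rb-null and 9462 to 10602 in control cells, while the alpha globin gene Hba-a1 was below the filter, with 6.97 to 14.1 in Rb-null and 8.61 to 27.0 in control cells. That Hba-a1 value rests on 1 probe set, and probe sets that name several genes were not used. It therefore does not give the level of alpha globin, and the beta globin genes Hbb-b1 and Hbb-bt had no value. Epor, the erythropoietin receptor whose locus carries Cre in both groups, read 248, 2228 and 558 in Rb-null cells, against 2221, 266 and 609 in control cells. Its pair differences of -3.24, 2.96 and -0.14 thus had opposite signs in pairs 1 and 2.

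None of the fatty acid oxidation genes passed the test between Rb-null and control cells, but 26 of the 32 had a negative log2 fold change. Their median was -0.28, against -0.04 over all genes tested. The lowest values belonged to Ech1 at -1.63, Acaa2 at -0.89 and Acsl5 at -0.75, and the highest to Acad10 at 0.45. Negative values made up 81.2% of these genes and 54.6% of all tested. Limma with Benjamini-Hochberg adjustment over 13232 genes called 0 of the 32, against a background of 0% over all genes, and the lowest adjusted p among them was 1.00. At an unadjusted p under 0.05 there was 1, Acsl5, which was lower, where 1.51% of all genes were lower and 2.55% higher at that level. The genes were chosen with earlier results of these arrays known, so these counts describe the list and no test of the list was made.

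The median difference of the 32 genes was -0.17 in pair 1, -0.05 in pair 2 and -0.53 in pair 3, where all genes tested had -0.03, -0.02 and -0.05. In each of the 3 pairs 15 genes were lower, 46.9% of the list against 24.1% of all genes, and 4 were higher, 12.5% against 18.4%. Rb-null array 3 was the lowest of the 6 arrays for 14 of the genes, or 43.8%, against 22.6% of all genes. Without that array the median was -0.14 with 21 genes negative, against -0.07 over all genes with 7767 of 13232 negative. Without both arrays numbered 3 it was also -0.14, with 24 negative, against -0.03 and 7190 of 13232 over all genes. With the replicate number as a block, limma again called 0 of the 32 (lowest adjusted p = 0.108 for Acaa2). At an unadjusted p under 0.05 the blocked fit had 7 lower and 1 higher, or 21.9% and 3.12% of the list, where 9.14% and 7.77% of all genes were lower and higher.

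**Figure D1:**
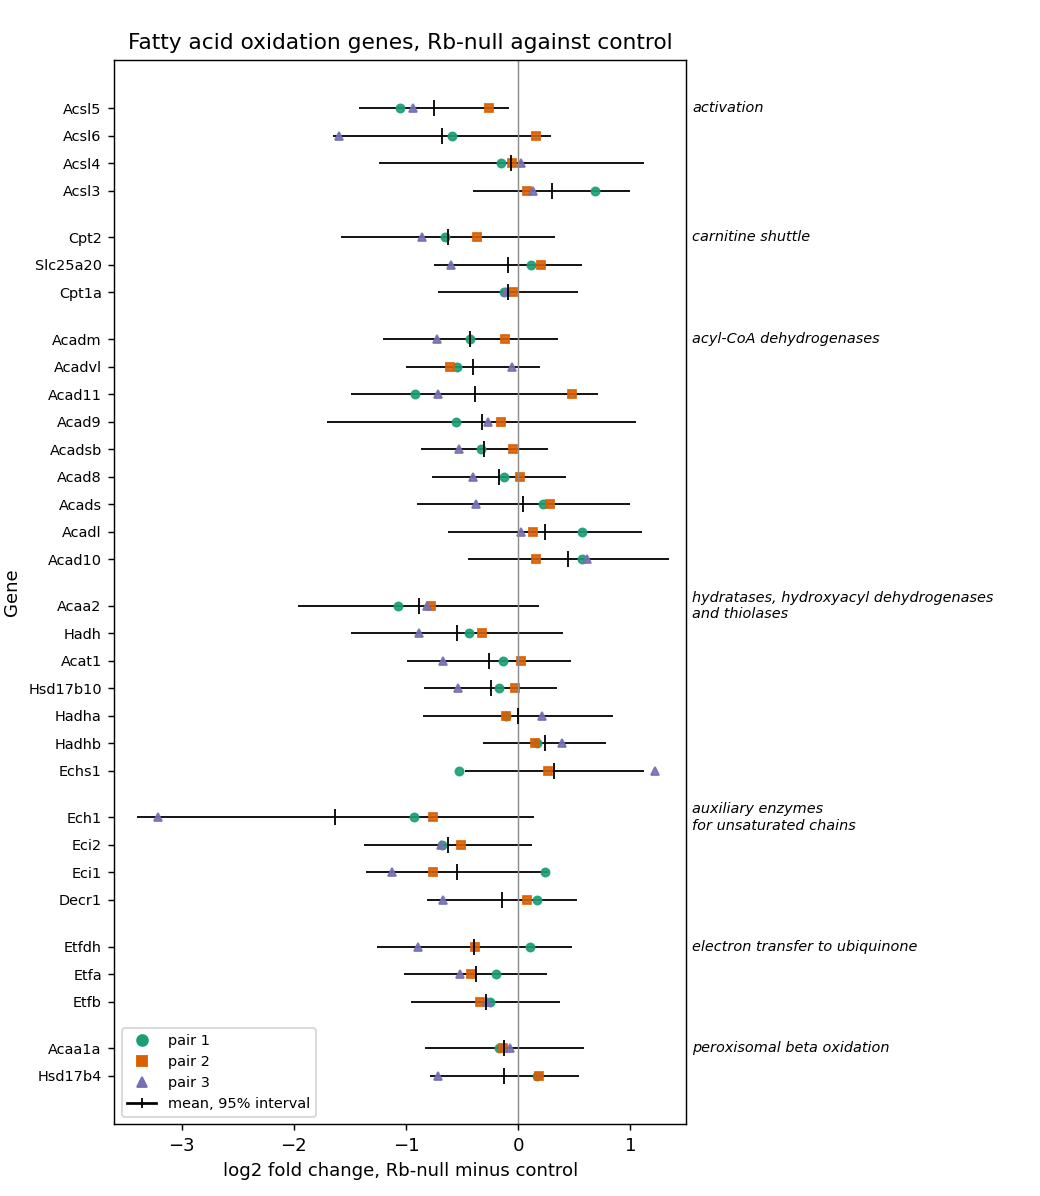
Log2 fold change (Rb-null minus control, horizontal axis) of the 32 tested fatty acid oxidation genes, by role. Bars are the mean with the 95% interval of the limma fit without the block, and coloured points are the 3 pairs of arrays. The interval of Acsl5 lies below 0 (-1.42 to -0.08), while those of the other 31 genes include 0.

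Acyl-CoA synthetases start the pathway, and their members did not share a direction. Acsl5, which activates long chains at mitochondria and the endoplasmic reticulum, read 448, 664 and 289 in Rb-null cells, against 870, 789 and 573 in control cells. Rb-null array 2 exceeded control array 3 in these deposited values, while after quantile normalization all 3 Rb-null values lay below all 3 control values. Its log2 fold change was -0.75 (SE 0.29, limma adjusted p = 1.00; with the block adjusted p = 0.186), with pair differences of -1.05, -0.26 and -0.94. Across 16 alternative settings the log2 fold change of Acsl5 ran from -0.95 to -0.57. RefSeq's promoter table gives Acsl5 a start that lies inside the annotated gene span. The 250 bases before that start (GRCm38.p6, chr19:55253119-55253368, plus strand) are shown because Acsl5 has the lowest p of the list, with a CCAAT box in capitals.

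Acsl5: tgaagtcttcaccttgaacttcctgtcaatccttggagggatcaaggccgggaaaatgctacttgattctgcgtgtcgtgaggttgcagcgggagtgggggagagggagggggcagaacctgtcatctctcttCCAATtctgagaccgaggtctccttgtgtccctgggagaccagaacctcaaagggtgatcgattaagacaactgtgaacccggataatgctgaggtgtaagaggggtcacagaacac

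Acsl6, an isoform abundant in brain and red cell precursors, read 33.0, 63.1 and 4.51 in Rb-null cells, against 60.8, 54.1 and 42.4 in control cells. The groups overlapped, since Rb-null array 2 was the highest of the 6, and Rb-null array 3 was the lowest. Its log2 fold change was -0.68 (SE 0.43) with -0.19 without Rb-null array 3 and -1.09 without Rb-null array 2. Acsl3, tied to lipid droplets and the endoplasmic reticulum, read 48.9, 41.2 and 18.6 in Rb-null and 26.1, 37.2 and 14.9 in control cells. It was higher in all 3 pairs (0.68, 0.08 and 0.13), the groups overlapped, and the log2 fold change was 0.30 (SE 0.31), between 0.14 without Rb-null array 1 and 0.52 without Rb-null array 3. Acsl4, which prefers arachidonic acid, had -0.06 (SE 0.52) on its brightest probe set. A dimmer Acsl4 probe set had 0.40, so the Acsl4 probe sets disagree in sign.

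The carnitine shuttle had 3 measured members, all with negative values. Cpt1a, the liver form of the outer membrane transferase and the regulated entry step, had a log2 fold change of -0.09 (SE 0.27), with pair differences between -0.12 and -0.05. Its 95% interval ran from -0.72 to 0.53. Slc25a20, the carrier that exchanges acylcarnitine for carnitine, had -0.09 (SE 0.29). It was higher in pairs 1 and 2 (0.12 and 0.21) and lower in pair 3 (-0.60). A second Slc25a20 probe set that passed the filter had -0.35. Cpt2, the inner membrane transferase that regenerates acyl-CoA, had -0.63 (SE 0.42) and was lower in each pair (-0.65, -0.36 and -0.86). Its adjusted p was 1.00 in limma and 0.179 with the block, where its SE was 0.17. A second Cpt2 probe set that passed the filter had -0.37.

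Among the acyl-CoA dehydrogenases, which make the first oxidation and are sorted by chain length, 6 of 9 were negative and the median was -0.30. Acadvl, for very long chains, read 218, 188 and 197 in Rb-null cells, against 311, 296 and 205 in control cells. Control array 3 stood near the Rb-null arrays, and the deposited groups overlapped. After normalization they did not, with log2 values of 7.80, 7.52 and 7.95 in Rb-null and 8.35, 8.13 and 8.0 in control cells. The log2 fold change of Acadvl was -0.40 (SE 0.26). Acadm, for medium chains, read 105, 142 and 143 in Rb-null cells and 149, 155 and 245 in control cells, with a log2 fold change of -0.43 (SE 0.34). Acadm was the 1 gene of the list whose deposited groups did not overlap, 3.12% of the list against 8.21% of all genes, although its normalized groups did.

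Acadl, for long chains, stood on the other side. It read 571, 461 and 187 in Rb-null cells, against 355, 412 and 185 in control cells, and both arrays numbered 3 were low. Its log2 fold change was 0.24 (SE 0.38) and its pair differences were 0.57, 0.13 and 0.02. Without Rb-null array 1, with control array 1 kept, it was -0.034, without control array 3 it was 0.0039, and without Rb-null array 3 it was 0.58. Acads, for short chains, had 0.04 (SE 0.42). Some relatives serve amino acid breakdown. Acadsb, which handles short branched chains from isoleucine, read 21.5, 26.6 and 14.4 in Rb-null and 32.9, 27.8 and 26.1 in control cells. These values are close to the filter intensity of 18.9, they overlapped as deposited and not after normalization, and the log2 fold change was -0.30 (SE 0.25). Acad8, the isobutyryl-CoA dehydrogenase of valine breakdown, had -0.17 (SE 0.26).

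Acad10, a little studied relative in the same family, read 215, 134 and 280 in Rb-null cells, against 140, 117 and 178 in control cells. It was higher in each pair (0.57, 0.16 and 0.62) with overlapping groups, and its log2 fold change of 0.45 (SE 0.39) was the highest of the list. It was 0.12 without Rb-null array 3 and 0.26 without control array 2, against 0.78 without Rb-null array 2 and 0.69 without control array 3. A second Acad10 probe set had -0.20, so the direction of Acad10 depends on the probe set. Acad11 had -0.39 (SE 0.48), with pair differences of -0.92, 0.48 and -0.71. Acad9, which also serves as an assembly factor of respiratory complex I, had -0.33 (SE 0.60) and was dim on both arrays numbered 3 (1.57 in Rb-null and 4.38 in control cells).

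**Figure D2:**
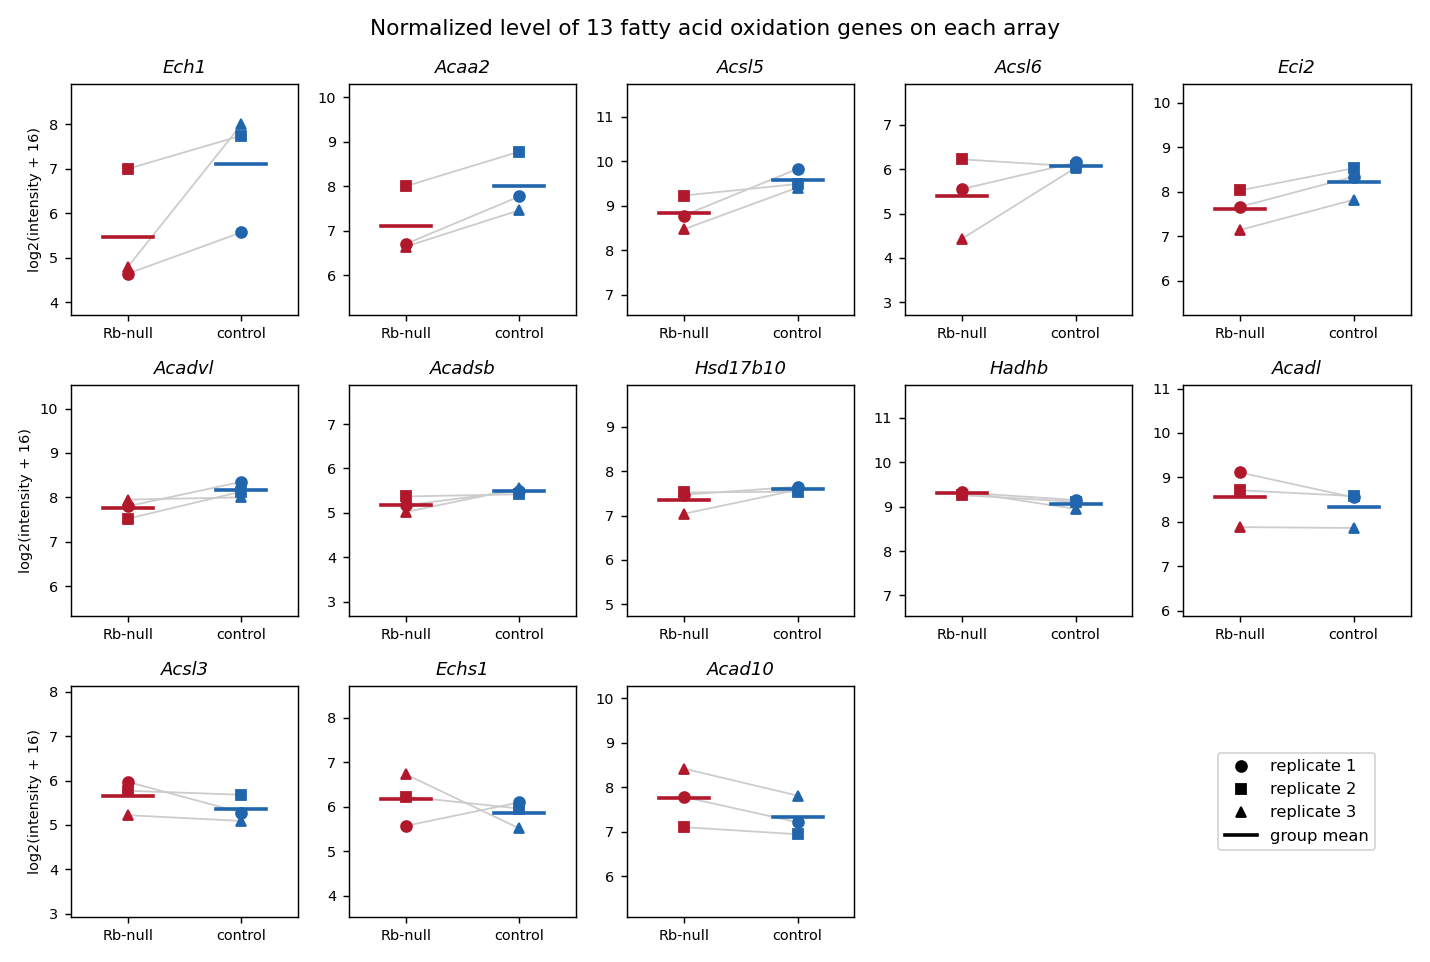
Normalized level (log2 of intensity plus 16, vertical axis, each panel spanning the same range) of the 13 named genes on each array, Rb-null left and control right, with lines joining arrays of the same replicate number and bars for group means. Groups do not overlap for Acsl5, Acadvl, Acadsb, Hsd17b10 and Hadhb, whereas Ech1 spreads over more than 2 log2 units within each group.

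The trifunctional protein carries the last 3 steps for long chains, and neither of its 2 subunits had a clearly negative value. Hadha, the alpha subunit, read 228, 393 and 433 in Rb-null cells, against 240, 416 and 374 in control cells. Its log2 fold change was -0.00 (SE 0.37). Hadhb, the beta subunit with the thiolase activity, read 657, 680 and 549 in Rb-null cells, against 547, 609 and 412 in control cells. Rb-null array 3 lay among the control arrays as deposited, but after normalization every Rb-null value was above every control value (9.26 to 9.34 against 8.95 to 9.15). The log2 fold change of Hadhb was 0.24 (SE 0.24; interval -0.31 to 0.79), and its pair differences were 0.17, 0.15 and 0.39. Dimmer Hadhb probe sets had -0.03 and 0.58. The first of these was nearly as bright as the one used (mean log2 9.02 against 9.19), so the direction of Hadhb depends on the probe set. In the annotation Hadha and Hadhb start back to back on opposite strands of chromosome 5, with 272 bases between the 2 starts. The 250 bases of it before the Hadhb start are shown on the Hadhb strand (GRCm38.p6, chr5:30155003-30155252), without the bases next to the Hadha start. They are shown because both subunits start from this shared stretch, and they hold none of the motifs listed below.

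Hadhb: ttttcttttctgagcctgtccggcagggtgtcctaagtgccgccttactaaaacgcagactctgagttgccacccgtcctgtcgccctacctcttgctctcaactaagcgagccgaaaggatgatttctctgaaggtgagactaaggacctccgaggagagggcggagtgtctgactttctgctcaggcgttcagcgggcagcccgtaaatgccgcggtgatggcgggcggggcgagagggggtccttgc

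Other enzymes act on the same steps for shorter chains. Hadh, the short-chain hydroxyacyl-CoA dehydrogenase, had -0.55 (SE 0.41) and was lower in each pair (-0.44, -0.32 and -0.88). Dimmer Hadh probe sets had the same sign, at -0.53 and -0.24. Hsd17b10, a hydroxyacyl-CoA dehydrogenase of isoleucine breakdown that is also part of mitochondrial RNase P, read 169, 187 and 99.3 in Rb-null cells, against 192, 189 and 149 in control cells. Rb-null array 3 was the lowest, the deposited groups overlapped, and the log2 fold change was -0.25 (SE 0.26). It was -0.09 without Rb-null array 3. Echs1, the short-chain enoyl-CoA hydratase, read 33.7, 64.1 and 77.9 in Rb-null and 58.3, 49.0 and 24.8 in control cells. Its pair differences of -0.52, 0.27 and 1.22 had no common sign, and its log2 fold change was 0.32 (SE 0.35), with 0.05 without Rb-null array 3 and 0.62 without Rb-null array 1.

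Acaa2, the thiolase of the mitochondrial matrix, had the lowest p in the blocked fit. It read 91.0, 273 and 72.4 in Rb-null cells, against 209, 480 and 137 in control cells. The groups overlapped because both arrays numbered 2 were high, and within pairs the differences were alike at -1.07, -0.77 and -0.81. Its log2 fold change was -0.89 (SE 0.47, limma adjusted p = 1.00; with the block adjusted p = 0.108). It was -0.50 without control array 2, -1.33 without Rb-null array 2 and -0.37 with the mean of its probe sets. With the block, a variance trend and robust moderation Acaa2 passed (limma adjusted p = 0.0335), as 1.39% of all genes did on the lower and 2.18% on the higher side. In a fit over all probe sets, 2 dimmer ones for Acaa2 gave -0.02 (SE 0.30) and -0.19 (SE 0.36). The first of these was nearly as bright as the one used (mean log2 7.32 against 7.56), so the lower value of Acaa2 depends on the probe set. Acat1, which splits acetoacetyl-CoA, had -0.26 (SE 0.32), and 2 dimmer Acat1 probe sets had 0.08 and 0.02.

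The auxiliary enzymes, which move or remove double bonds so that unsaturated chains can enter the cycle, had 4 of 4 negative values and a median of -0.59. Ech1, a dienoyl-CoA isomerase found in mitochondria and peroxisomes, read 10.2, 124 and 9.95 in Rb-null cells, against 35.5, 222 and 205 in control cells. Rb-null arrays 1 and 3 lay below the filter intensity of 18.9, control array 1 was also low, and the groups overlapped. The log2 fold change of Ech1 was -1.63 (SE 0.78; interval -3.40 to 0.14), with pair differences of -0.93, -0.76 and -3.21. Without both arrays numbered 3 its log2 fold change was -0.84. Eci2, an enoyl-CoA isomerase of mitochondria and peroxisomes, read 195, 277 and 107 in Rb-null cells, against 311, 397 and 180 in control cells. All 3 pairs were lower by similar amounts (-0.68, -0.51 and -0.68), although the groups overlapped. Its log2 fold change was -0.62 (SE 0.33, limma adjusted p = 1.00; with the block adjusted p = 0.150), and -0.39 without Rb-null array 3. Eci1, the main mitochondrial isomerase, had -0.55 (SE 0.36) with pair differences of 0.24, -0.76 and -1.13. Decr1, the mitochondrial dienoyl-CoA reductase, had -0.14 (SE 0.29), and was higher in pairs 1 and 2 (0.16 and 0.08) and lower in pair 3 (-0.67). The promoters of Ech1 (GRCm38.p6, chr7:28825088-28825337, plus strand) and Eci2 (chr13:34994145-34994394, minus strand) lie before the starts in the same table, that of Eci2 inside its annotated gene span, and are set side by side as those of the auxiliary enzymes with the lowest p. Capitals mark a CCAAT box and, on the opposite strand, a GATA site in Eci2, and the Ech1 stretch holds none of the motifs.

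Ech1: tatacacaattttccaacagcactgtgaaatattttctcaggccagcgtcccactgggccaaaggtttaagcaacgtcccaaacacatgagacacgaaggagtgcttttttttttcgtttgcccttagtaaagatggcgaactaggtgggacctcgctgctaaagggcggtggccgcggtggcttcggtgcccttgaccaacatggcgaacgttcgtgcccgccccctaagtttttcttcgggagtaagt

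Eci2: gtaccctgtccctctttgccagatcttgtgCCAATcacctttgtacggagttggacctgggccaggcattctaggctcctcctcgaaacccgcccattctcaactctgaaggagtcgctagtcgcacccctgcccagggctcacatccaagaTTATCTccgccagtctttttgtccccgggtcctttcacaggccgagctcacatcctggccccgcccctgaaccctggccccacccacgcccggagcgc

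Electron transfer to ubiquinone had 3 genes, all negative and similar in size. The flavoprotein subunit Etfa had a log2 fold change of -0.38 (SE 0.28). Its partner subunit Etfb had -0.29 (SE 0.29), and both were lower in each pair. Etfb read 734, 666 and 822 in Rb-null cells, against 800, 832 and 994 in control cells. Its groups overlapped by 1 array, Rb-null array 3. Etfdh, which hands the electrons to ubiquinone, had -0.39 (SE 0.38) and was higher in pair 1 (0.11). In peroxisomes, the thiolase Acaa1a had -0.13 (SE 0.31) and the bifunctional enzyme Hsd17b4 had -0.12 (SE 0.29), with Hsd17b4 higher in pairs 1 and 2 and lower in pair 3. A dimmer Hsd17b4 probe set had -0.56. As deposited it was lower in each pair, with 36.1, 66.5 and 10.8 in Rb-null against 81.8, 77.8 and 23.3 in control cells.

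After normalization the groups did not overlap for 5 of the 32 genes, 4 lower and 1 higher, or 15.6%, against 9.92% of all genes (4.78% lower and 5.13% higher). For 12 genes more than 1 probe set passed the filter, and in 4 of these (Acad10, Acat1, Acsl4 and Hadhb) the probe sets had opposite signs. The SE of the 32 log2 fold changes ran from 0.24 to 0.78. The 95% intervals of the fit without the block reached a median of 0.77 to either side. With the block the SE of the same genes ran from 0.14 to 0.49.

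Promoters were at hand for 29 of the 35 genes, from RefSeq, and were searched on both strands over the 250 bases before each start. The CCAAT box (CCAAT) was in 15 of the 29 genes, or 51.7%, against 37.5% of all 27025 genes with a promoter. The nuclear receptor core site (AGGTCA) was in 5, or 17.2%, against 15.8%, and its repeat with 1 base between, the form that PPAR receptors bind, was in 0, against 0.0407% of all genes. The ESRRA site (TCAAGGTCA), which contains the core site, was in the promoter of Acsl6 alone (0.422% of all genes). The core of the NRF1 site (GCGCATGCG) was in Acadm and Etfdh, or 6.9%, against 1.64%. Neither E2F form (TTTCGCGC in 0.3% and TTTGGCGC in 0.485% of all genes) nor the E-box (CACGTG, 6.86%) was in any of the 29. The GATA site (AGATAA) was in Acadvl and Eci2, or 6.9%, against 11.4%. The promoters of the listed genes had a median of 59.2% G and C, against 52.4% over all promoters, and the shares above do not allow for that. A match describes the letters and not a bound site.

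Markers of granulocytes and macrophages, cells that bone marrow also holds, had mostly negative values. Granulocyte markers were negative for 16 of 17 genes (median -0.49), and their pair medians of -0.75, -0.02 and -0.61 had pair 2 nearest to 0, as the fatty acid oxidation genes did. Their summed intensity ran from 28653 to 58464 in Rb-null and from 39078 to 59043 in control cells. Macrophage markers were negative for 12 of 15 (median -0.36; pair medians -0.28, 0.05 and -0.86), with summed intensities of 3802 to 8925 in Rb-null and 5641 to 10951 in control cells. B cell markers were negative for 7 of 9 (median -0.14; pair medians -0.40, -0.13 and -0.32), with sums of 393 to 601 in Rb-null and 619 to 938 in control cells. Erythroid markers had a median of 0.05 over 9 genes, with sums of 38247 to 45938 in Rb-null and 38693 to 40236 in control cells. In the fatty acid oxidation genes pair 2 was highest and pair 3 lowest. All genes tested had that order, as did macrophage, erythroid, and T and NK cell markers. Pair 2 was also nearest to 0 for macrophage, B cell and megakaryocyte markers and for all genes tested. T and NK cell markers were negative for 4 of 7 (median -0.08; pair medians -0.07, 0.18 and -0.10), with sums of 516 to 654 in Rb-null and 609 to 657 in control cells. Megakaryocyte markers were negative for 5 of 5 (median -0.28; pair medians 0.04, 0.02 and -0.75), with sums of 381 to 479 in Rb-null and 401 to 658 in control cells. Mast cell, basophil and eosinophil markers were negative for 7 of 9 (median -0.14; pair medians -0.06, -0.11 and -0.20), with sums of 487 to 1497 in Rb-null and 555 to 1709 in control cells. No marker read 0 on any array. The ratio of actin signal from the 3' to the 5' end was 1.43, 1.10 and 1.01 on Rb-null and 1.67, 1.15 and 1.18 on control arrays, lower in each pair. The same ratio for Gapdh was 1.17, 1.38 and 0.737 on Rb-null and 1.16, 1.34 and 0.948 on control arrays, higher in pairs 1 and 2 and lower in pair 3. The part of other cells and of RNA quality in these results was not tested, and fewer cells of a type cannot be told apart from less RNA per cell in bulk samples.

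**Figure D3:**
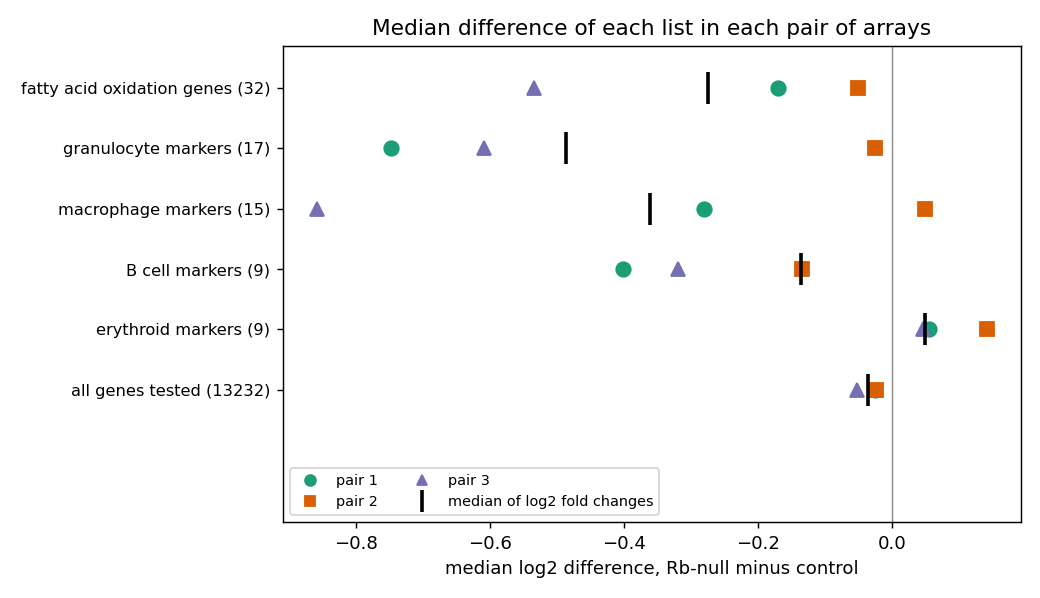
Median log2 difference (Rb-null minus control, horizontal axis) of 5 gene lists and of all genes tested, in each of the 3 pairs of arrays, with the median of the log2 fold changes as a bar and the number of tested genes in brackets. Every list shown is lower in pairs 1 and 3 than in pair 2. The same holds for all genes tested, by little (-0.03 and -0.05 against -0.02).

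The wider fatty acid pathway was read from 5 further lists with 103 tested genes. Of these 66 were negative, where 54.6% of all genes tested were, and limma called 0 without or with the block. At an unadjusted p under 0.05 there were 5 lower and 1 higher, where 1.51% of all genes were lower and 2.55% higher. The blocked fit had 16 lower and 4 higher at that level, where 9.14% of all genes were lower and 7.77% higher. Medians were -0.03 over 24 genes of uptake, binding and thioesterases, -0.19 over 23 other peroxisomal genes and -0.13 over 22 genes of fatty acid synthesis and malonyl-CoA control. Enzymes of branched-chain, propionate and ketone metabolism had -0.26 over 16 genes, and the regulators had -0.04 over 18.

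**Figure D4:**
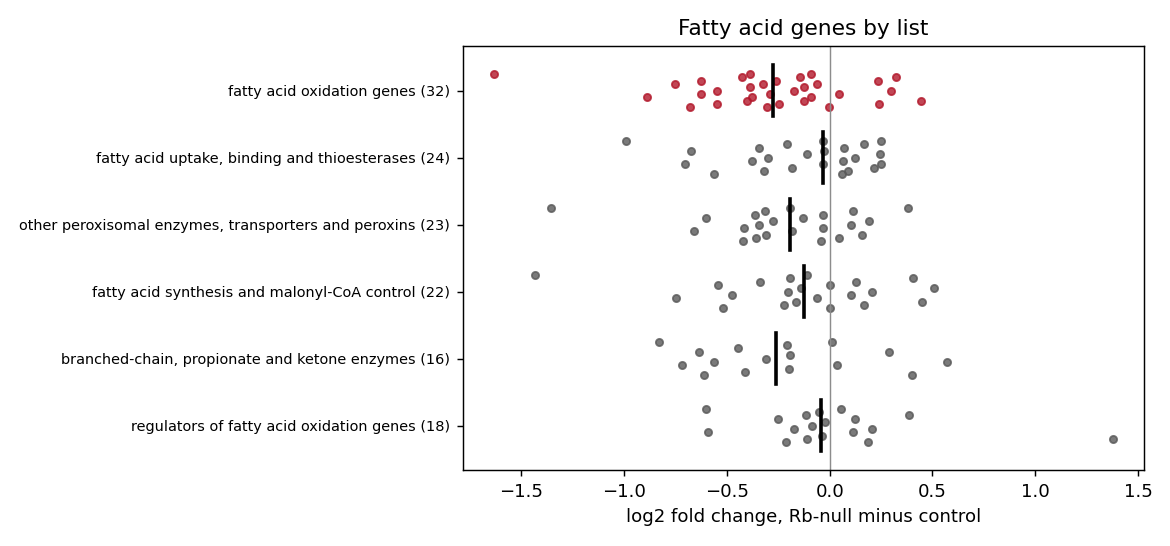
Log2 fold change (Rb-null minus control, horizontal axis) of each tested gene in 6 lists, with a bar for the median of the list and the number of genes in brackets. Vertical scatter within a list only separates points. The fatty acid oxidation genes (median -0.28) and the branched-chain, propionate and ketone enzymes (median -0.26) have the lowest medians of the 6.

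Uptake was represented by Cd36, a fatty acid receptor that macrophages also carry, which read 474, 879 and 771 in Rb-null cells, against 918, 1126 and 2400 in control cells. All Rb-null values were below all control values, and the log2 fold change was -0.99 (SE 0.43, limma adjusted p = 1.00). The binding proteins Fabp4 and Acbd5 had -0.56 (SE 0.36) and -0.70 (SE 0.48). In the peroxisomal list stood Cat, the catalase that removes the peroxide made there, with 1735, 1400 and 629 in Rb-null cells and 3924, 2288 and 2840 in control cells. The groups of Cat did not overlap, and its log2 fold change of -1.36 (SE 0.39) missed the test (limma adjusted p = 0.723; 0.114 with the block). Scp2, a lipid transfer protein with a peroxisomal thiolase form, had -0.60 (SE 0.28), and Pex6, part of the peroxisomal import machinery, had 0.38 (SE 0.25).

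Acss1, which makes acetyl-CoA from acetate in mitochondria, had -0.75 (SE 0.28), and the desaturase Scd1 had -1.43 (SE 0.59). Scd1 read 23.7, 65.0 and 7.61 in Rb-null and 239, 99.4 and 31.3 in control cells, so its groups overlapped. Mcat of mitochondrial fatty acid synthesis had -0.52 (SE 0.30). Propionyl-CoA carboxylase subunit Pccb had -0.72 (SE 0.29) and Mccc2 of leucine breakdown had -0.61 (SE 0.28), whereas Bcat1, the cytosolic aminotransferase of branched-chain amino acids, had 0.57 (SE 0.29). Groups did not overlap for Acss1, Pccb and Mccc2, and they did for Bcat1 after normalization. Over all the wider lists groups did not overlap for 9 lower and 2 higher of 103 genes, where 4.78% of all genes were lower and 5.13% higher.

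The regulators had no common direction, and some were dim. Ppara, the nuclear receptor that drives these genes in liver, read 25, 31.2 and 49.7 in Rb-null cells, against 42.7, 63.6 and 81.8 in control cells. It was lower in each pair (-0.46, -0.73 and -0.60), and the groups overlapped, with a log2 fold change of -0.59 (SE 0.36, limma adjusted p = 1.00). The coactivator Ppargc1a read at most 14.4 in Rb-null and 32.2 in control cells, and the receptor Esrra at most 21.2 in Rb-null and 17.5 in control cells, both below the filter. Sirt1, a deacetylase that acts on such coactivators, read 478, 507 and 223 in Rb-null cells, against 165, 221 and 62.8 in control cells. The groups of Sirt1 did not overlap, and its log2 fold change was 1.38 (SE 0.39, limma adjusted p = 0.696; with the block adjusted p = 0.0844). With trend and robust moderation added to the block, limma called Sirt1 higher (adjusted p = 0.0162), and Cat (adjusted p = 0.0297) and Acss1 (adjusted p = 0.0431) lower. These are 1 higher and 2 lower of 103, where that fit called 2.18% of all genes higher and 1.39% lower. Prkab1, a subunit of the energy sensor AMPK, had 0.38 (SE 0.27).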

How the data were processed

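Expression was measured on 6 Affymetrix mouse arrays, 3 of Rb-null and 3 of control cells, with biotin-labelled total RNA, per the labels. The deposited values are linear intensities per probe set. No source used here gives the method or scaling behind them. Of 45101 probe sets, 64 controls, 4 empty ones and 1 with a value of 20200000 were left out. Of the 45032 kept, 34941 carried 1 gene symbol, 932 several and 9159 none.

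Values were taken as log2(intensity + 16) and, since array medians differed by 0.264, quantile normalized. The filter kept those whose mean exceeded the 40th percentile (log2 5.12, intensity 18.9), with the highest-mean probe set for each gene, giving 13232 genes. Rb-null was compared with control with limma 3.58.1 in R 4.3.3, 2-sided, with Benjamini-Hochberg adjustment over all genes and a threshold of 0.05. Log2 fold changes are on the log2(intensity + 16) scale, which understates those of dim genes. Printed intensities, with 1 value an array, are as deposited. An exact permutation test of 3 against 3 arrays cannot go below p = 0.1, so none was run.

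Genes given with the value on every array were those whose normalized groups did not overlap, and the 5 of lowest p on each side, with a few others shown for comparison. In the wider lists they were the 3 with the smallest p, with Ppara, Ppargc1a and Esrra. The genes, lists and tests were chosen with earlier results of these data known.

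No 2 arrays were identical. Deviations from the group means of arrays with the same replicate number correlated at 0.636, 0.615 and 0.653 across genes (highest for unlike numbers 0.0370), so the numbers pair the arrays. The pairing comes from the titles' numbers and this check.

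The fits were tested on simulated data (13232 genes, 200 of them changed, 10 times). The fit without the block recovered 34.7% of 4-fold and 0% of 2-fold changes, and the block 100% and 81.8% (7.71% of its calls false). With trend and robust moderation added 9.08% were false. The simulated arrays carried the replicate shifts of the blocked fit, which favours the block.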

Additional observations from a re-analysis of the deposited data

How the results depend on the processing

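The median log2 fold change of the fatty acid oxidation genes stayed negative under all 16 alternatives, between -0.32 and -0.14. The block and the changed moderation cannot alter a log2 fold change here, so those settings could not move this median. Over all genes the median ran from -0.07 (without Rb-null array 3) to 0.00042 (without control array 3). Limma called 0 of the fatty acid oxidation genes in 15 alternatives. With the replicate block, a variance trend and robust moderation, limma called 1 of them (Acaa2) and 473 genes in all, against 0 and 0 in the fit without these, and with an offset of 64 it called 2 genes in all, neither on the list. Leaving out 1 array at a time gave medians from -0.32 to -0.14 (nearest to 0 without Rb-null array 3) and 0 calls. For the 13 named genes, which were picked from the fit without the block, 202 of 205 values kept sign and call. Settings that changed only the block, the moderation or the filter could not change a sign, and no gene had a call to lose. Echs1 turned to -0.13 without both arrays numbered 3, and Acadl ran from -0.034 (without Rb-null array 1) to 0.58 with 1 array left out. The cause was not tested. The replicate block alone changed no call of a gene or list member, with 0 calls in all. Probe sets were held fixed except where the filter or the choice of probe set was itself changed, and Acadsb, Acsl3 and Acsl6 had no value with the filter at the 60th percentile. Acad9, Acadsb, Acsl3, Acsl6, Cpt2 and Ech1 read below the filter intensity on at least 1 array.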
